A study of Mus musculus with 30 samples.

Results

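The 8 Toll-like receptor genes (Tlr1, Tlr2, Tlr3, Tlr4, Tlr6, Tlr7, Tlr9 and Tlr13), the co-receptor gene Cd14 and the adaptor gene Myd88 were followed in microglia sorted from mice lacking Bin1 in Cx3cr1-expressing cells. The genes were taken by name, and no measured value enters the rule that lists them. They are 10 of the 47643 genes in the expression table. RNA-seq was run on microglia sorted as CD11b-positive, CD45-medium cells from 3-month-old mice, and 30 libraries were analysed, 1 per mouse. Homo mice were Bin1 flox/flox::Cx3Cr1-Cre+, Het mice were Bin1 wt/flox::Cx3Cr1-Cre+ and WT mice were Bin1 wt/flox::Cx3Cr1-Cre−, so the WT controls also carried 1 floxed Bin1 allele. WT differed from Het by the Cre alone and from Homo by the Cre and the second floxed allele. The males (M) gave 5 WT-M, 6 Het-M and 5 Homo-M libraries and the females (F) gave 4 WT-F, 5 Het-F and 5 Homo-F libraries. The Cre was knocked into Cx3cr1, a gene that other macrophages also use, so the deletion need not be limited to microglia, and the Cre-positive groups differ from WT in the Cx3cr1 allele as well as in Bin1. The protocol text in the labels differs from the study's methods, which are followed here: it describes cultured microglia of newborn pups, treatments that include the TLR4 ligand LPS, and a stranded TruSeq kit. No sample's own labels name a treatment, and which text holds for these libraries was not settled. In sorted bulk samples, fewer cells of a type and less RNA per cell cannot be told apart.

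Toll-like receptors recognize conserved microbial and damage-associated molecules. TLR1, TLR2, TLR4 and TLR6 sit at the cell surface, while TLR3, TLR7, TLR9 and TLR13 sense nucleic acids inside endosomes. CD14 delivers lipopolysaccharide to TLR4, and MYD88 couples all of these receptors except TLR3 to NF-kB and to the cytokine genes that NF-kB switches on. Microglia are the main cells of the brain parenchyma that carry these receptors.

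Levels are given in FPKM, a read measure corrected for the length of each gene and for the total of each library. Differences are log2 fold changes on log2(FPKM + 0.1) after scaling between libraries, with the standard error (SE), and adjusted p-values come from limma with Benjamini-Hochberg adjustment over 16897 genes. A gene was called a differentially expressed gene (DEG) at an adjusted p below 0.05 with a fold change over 1.5. Ranges and their overlap are given in FPKM before that scaling.

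Bin1 and Cx3cr1 served as checks of the labels. Bin1 lay between 230.3 and 289.5 FPKM in the 9 WT libraries and between 39.5 and 55.6 FPKM in the 10 Homo libraries. 2 Het libraries went against their label. The library labelled Het-F-0206 had 42.7 FPKM of Bin1 and 13.9 FPKM of Cx3cr1, and the library labelled Het-M-0199 had 51.8 FPKM of Bin1, against 117.3 to 164.3 FPKM of Bin1 in the other Het libraries. Values without these 2 libraries are given beside the calls of members that they enter and beside the Het differences described for single members. The mouse numbers in the sample titles fell into a lower range, called early here, and a higher range, called late. The early numbers were 3 of 5 Homo-M, 2 of 6 Het-M, 0 of 5 WT-M and 1 of 4 WT-F libraries, so number range and genotype overlap in the males. The summed level of 8 microglia markers, Cx3cr1 among them, was 16776 to 25151 FPKM in all 30 libraries. The 3 T cell markers summed to at most 0.567 FPKM in any library, with Cd3e at 0 in all 30 and Cd3d and Trac at 0 in 16 and 26.

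Positions are on GRCm38 with the GENCODE M21 annotation, and each of the 10 genes is protein-coding. Cd14 lies on chromosome 18, 4.29 Mb from Bin1. Tlr7 (chrX:167304929-167330558, minus strand) and Tlr13 (chrX:106143204-106160493, plus strand) are X-linked. Myd88 lies 0.56 Mb and Tlr9 13.67 Mb from Cx3cr1, the locus that carries the Cre.

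Tlr1 (chr5:64924679-64933563) and Tlr6 (chr5:64952031-64960097) are neighbours on the minus strand and are paralogs, so reads that match both could be shared out by the authors' counting. Tlr2 (chr3:83836272-83841767, minus strand), Tlr4 (chr4:66827584-66930284, plus strand) and Tlr9 (chr9:106222598-106226883, plus strand) overlap no other annotated gene. Tlr3 (chr8:45395665-45411080, minus strand) overlaps the antisense gene Gm45542. Myd88 (chr9:119335934-119341411, minus strand) overlaps Acaa1a on the other strand and Slc22a14 on its own, and with the kit of the study's methods, which does not mark strand, reads from overlapping genes cannot be told apart.

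Promoter windows from RefSeq (GRCm38.p6) were used for 7 of the 10 genes, with 2 start sites for Tlr1 and for Tlr6. Tlr4, Tlr7 and Cd14 were not used here. The windows run from 250 bases before the start site to 50 bases after it, 5′ to 3′ on the gene's strand. The 3 shown are those of Tlr1 and Myd88, the members with a genotype or sex difference past an adjusted p of 0.05, and of Tlr2, which differed between mouse number ranges. The Tlr1 window is chr5:64933509-64933808, the Tlr2 window chr3:83841559-83841858 and the Myd88 window chr9:119339969-119340268, all on the minus strand. Capitals mark matches to 4 motifs on either strand, with overlapping matches merged: the PU.1 core GAGGAA, the NF-kB pattern (GGG and CC with 5 bases of any kind between them), the AP-1 pattern TGANTCA and the IRF pattern (GAAA repeated after 2 bases of any kind).
Tlr1: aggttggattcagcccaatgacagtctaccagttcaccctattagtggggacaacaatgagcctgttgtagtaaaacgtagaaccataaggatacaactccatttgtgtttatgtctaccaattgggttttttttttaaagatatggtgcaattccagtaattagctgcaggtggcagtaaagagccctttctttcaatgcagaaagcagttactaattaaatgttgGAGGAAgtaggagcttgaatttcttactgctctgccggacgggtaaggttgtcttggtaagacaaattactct
Tlr2: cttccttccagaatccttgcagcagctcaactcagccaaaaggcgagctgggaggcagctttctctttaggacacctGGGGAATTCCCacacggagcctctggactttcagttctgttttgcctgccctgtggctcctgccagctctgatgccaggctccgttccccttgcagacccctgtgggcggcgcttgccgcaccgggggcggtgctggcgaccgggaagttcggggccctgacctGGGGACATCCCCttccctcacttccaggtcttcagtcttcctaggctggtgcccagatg
Myd88: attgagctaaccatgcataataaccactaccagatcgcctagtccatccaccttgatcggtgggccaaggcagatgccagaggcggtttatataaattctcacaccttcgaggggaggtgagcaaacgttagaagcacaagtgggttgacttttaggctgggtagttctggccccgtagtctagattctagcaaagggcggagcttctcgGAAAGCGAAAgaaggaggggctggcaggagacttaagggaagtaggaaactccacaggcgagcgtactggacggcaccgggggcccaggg

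The Tlr1 window held 1 PU.1 core, beginning at −23 from the start. The Tlr2 window held 2 clusters of overlapping NF-kB matches, beginning at −173 and −9. The Myd88 window held 1 IRF match, beginning at −40. Over all 32851 windows of the table, 28.3% held the PU.1 core, 50.8% the NF-kB pattern, 7.81% the AP-1 pattern and 3.44% the IRF pattern. Of the 7 members whose windows were used, the PU.1 core was found for Tlr1, Tlr9 and Tlr13, the NF-kB pattern for Tlr2, Tlr3 and Tlr6, the AP-1 pattern for Tlr9 and the IRF pattern for Tlr6 and Myd88. A match describes letters and does not show that a factor binds.

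The 10 genes spanned a wide range of levels. Cd14 was the highest, at 276.5 ± 33.4 FPKM (SD, n = 30), and ranked 188 among all genes by mean level. Tlr13, the endosomal sensor of bacterial ribosomal RNA, followed at 117.1 ± 19.0 FPKM. Tlr7, a sensor of single-stranded RNA, and Tlr2, the partner of TLR1 and TLR6 in sensing lipopeptides, came next at 83.9 ± 10.4 and 83.1 ± 13.4 FPKM. Myd88 stood at 55.0 ± 5.57 FPKM and Tlr4, the lipopolysaccharide receptor, at 52.7 ± 7.74 FPKM. Tlr1 and Tlr3, the sensor of double-stranded RNA, were at 35.5 ± 6.99 and 34.3 ± 4.52 FPKM. Tlr6 was at 19.9 ± 1.82 FPKM, and Tlr9, the sensor of unmethylated CpG DNA, was the lowest at 1.86 ± 0.410 FPKM.

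3 neighbours in this order did not separate beyond their spread. Tlr7 exceeded Tlr2 in 14 of 30 libraries, Myd88 exceeded Tlr4 in 18 and Tlr1 exceeded Tlr3 in 15. Tlr4 exceeded Tlr1 in 28 libraries, and each of the other neighbours kept its order in all 30. The ranges of Cd14 and Tlr13, of Tlr3 and Tlr6, and of Tlr6 and Tlr9 did not overlap. Of the 4 receptor genes outside the list, Tlr12 averaged 26.1 FPKM and Tlr5 7.87 FPKM, while Tlr8 and Tlr11 averaged 0.220 and 0.259 FPKM. Tlr6 and Myd88 varied least within groups, with SDs of 0.14 and 0.16 on the log2 scale, and Tlr9 varied most, at 0.37.

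**Figure D1:**
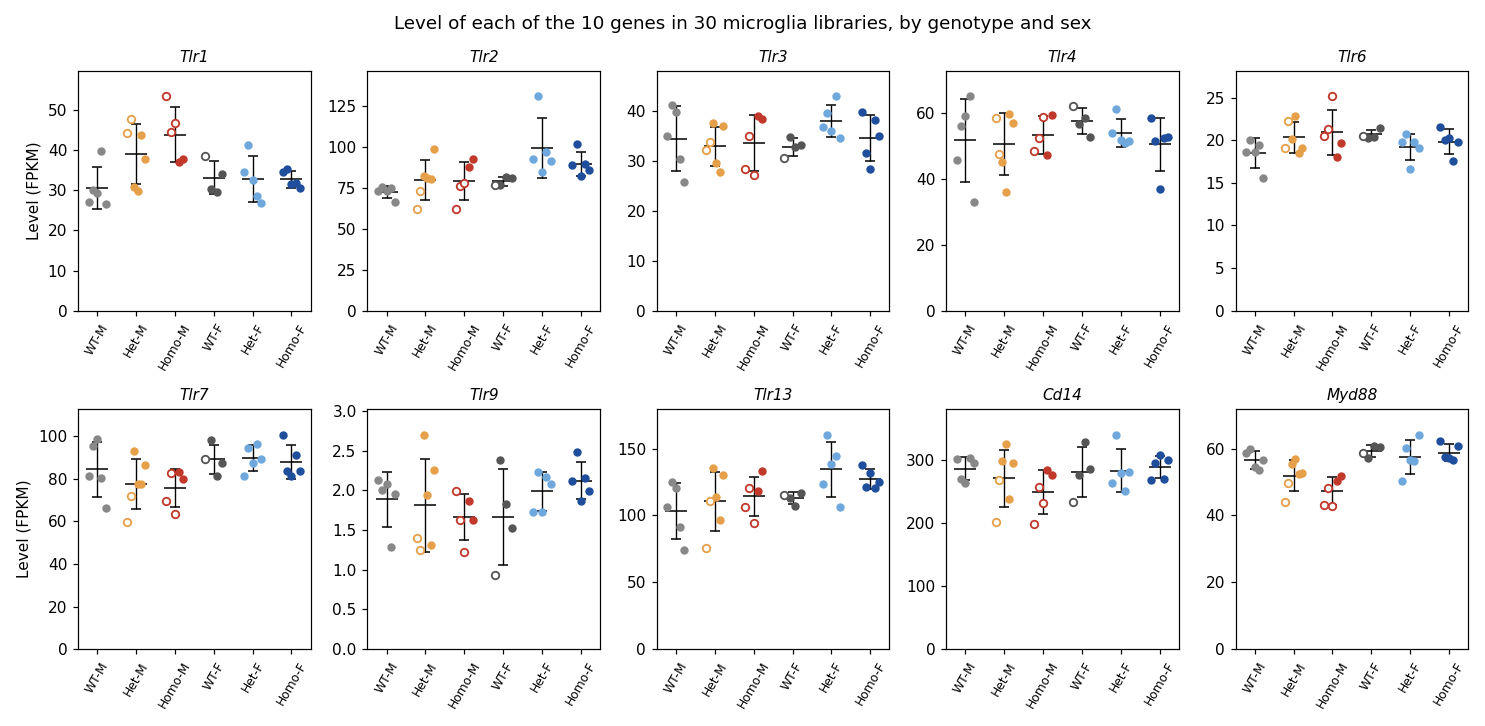
Level in FPKM (vertical axes, linear and starting at 0) of the 10 genes in the 30 libraries of 6 groups (horizontal axes). Points are libraries, open where the mouse number is early; bars are the group mean and SD. The groups overlap for most genes, Myd88 of Homo-M lies below WT-M, and the single Het-F point at 130.6 FPKM of Tlr2 is the library labelled Het-F-0206.

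The comparison of Homo-M with WT-M asked whether loss of Bin1 changed receptor expression in male microglia. None of the 10 genes was a DEG, against 1.81% of all genes tested, and 1 gene, Tlr1, passed an adjusted p below 0.05 without the fold change limit, against 2.82% of all genes. At an unadjusted p below 0.05 there were 3 members, against 22.5% of all genes. The median difference of the 10 genes was −0.06, against 0.03 for all genes.

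Tlr1 encodes a surface receptor that pairs with TLR2 on triacylated lipopeptides. It was at 27.1, 30.0, 29.3, 39.8 and 26.7 FPKM in WT-M and at 53.3, 44.4, 46.8, 36.9 and 37.7 FPKM in Homo-M. All Homo-M values but 2 lay above every WT-M value, those 2 being the late Homo-M libraries, which lay below WT-M-0202 at 39.8 FPKM and above the other 4. The difference was 0.44 (SE 0.11, adjusted p = 0.0362), a 1.36-fold higher level with a 95% interval of 1.15 to 1.59. Among late numbers alone it was 0.30 (adjusted p = 0.646, 2 Homo-M against 5 WT-M), and with number range as a covariate it was 0.30 (adjusted p = 0.416). The call depended on single libraries: it held in 3 of the 10 fits that left out 1 of them (Homo-M-0189, Homo-M-0190 or WT-M-0202) and was lost in the other 7 (each of Homo-M-0093, Homo-M-0097, Homo-M-0109, WT-M-0176, WT-M-0177, WT-M-0178 and WT-M-0258), with adjusted p-values up to 0.120 without Homo-M-0093, where the difference was 0.39. Over the 10 fits the difference ran from 0.38 to 0.53, and 89 to 1379 of all genes passed, against 477 with all libraries.

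Myd88 went the other way and was the only one of the 10 whose Homo-M and WT-M values did not overlap, against 3.94% of all genes. It was at 58.7, 59.8, 54.6, 53.6 and 56.6 FPKM in WT-M and at 43.1, 48.4, 42.7, 50.4 and 51.7 FPKM in Homo-M. The difference was −0.35 (SE 0.10, adjusted p = 0.0552), which missed the threshold. It passed in 3 of the 10 fits that left out 1 library, without Homo-M-0189, Homo-M-0190 or WT-M-0202. It came to −0.15 (adjusted p = 0.790) among late numbers alone. Its 3 lowest Homo-M values were those of the early libraries.

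Cd14 was at 301.1, 269.7, 263.4, 302.9 and 295.1 FPKM in WT-M and at 199.2, 257.2, 232.1, 283.8 and 276.4 FPKM in Homo-M. These ranges overlapped, and the difference was −0.29 (SE 0.14, adjusted p = 0.222). Tlr4, the receptor that CD14 serves, was at 33.1 to 65.1 FPKM in WT-M and 47.2 to 59.6 FPKM in Homo-M, a difference of −0.01 (95% interval −0.30 to 0.29). Tlr2 differed by 0.03 (−0.24 to 0.31), Tlr6 by 0.09 (−0.10 to 0.29) and Tlr13 by 0.08 (−0.27 to 0.42). The other endosomal receptors did not pass either, with differences of −0.11 for Tlr3, −0.23 for Tlr7 and −0.24 for Tlr9. For 8 of the 10 genes the interval lay within 1.5-fold in either direction, the exceptions being Tlr1 and Tlr9.

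Neutrophil markers moved with these groups. The summed level of 7 of them, whose cells also carry Cd14, Tlr2 and Myd88, was 43.9 to 349.2 FPKM in WT-M and 0 to 80.8 FPKM in Homo-M, and 4 of the 7 (Ngp, Ltf, S100a9 and Lcn2) were lower at an adjusted p below 0.05. Border macrophage markers, 7 genes, summed to 17.5 to 47.0 FPKM in WT-M and 12.4 to 29.7 FPKM in Homo-M. Their part in the differences of the 10 genes was not tested.

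**Figure D2:**
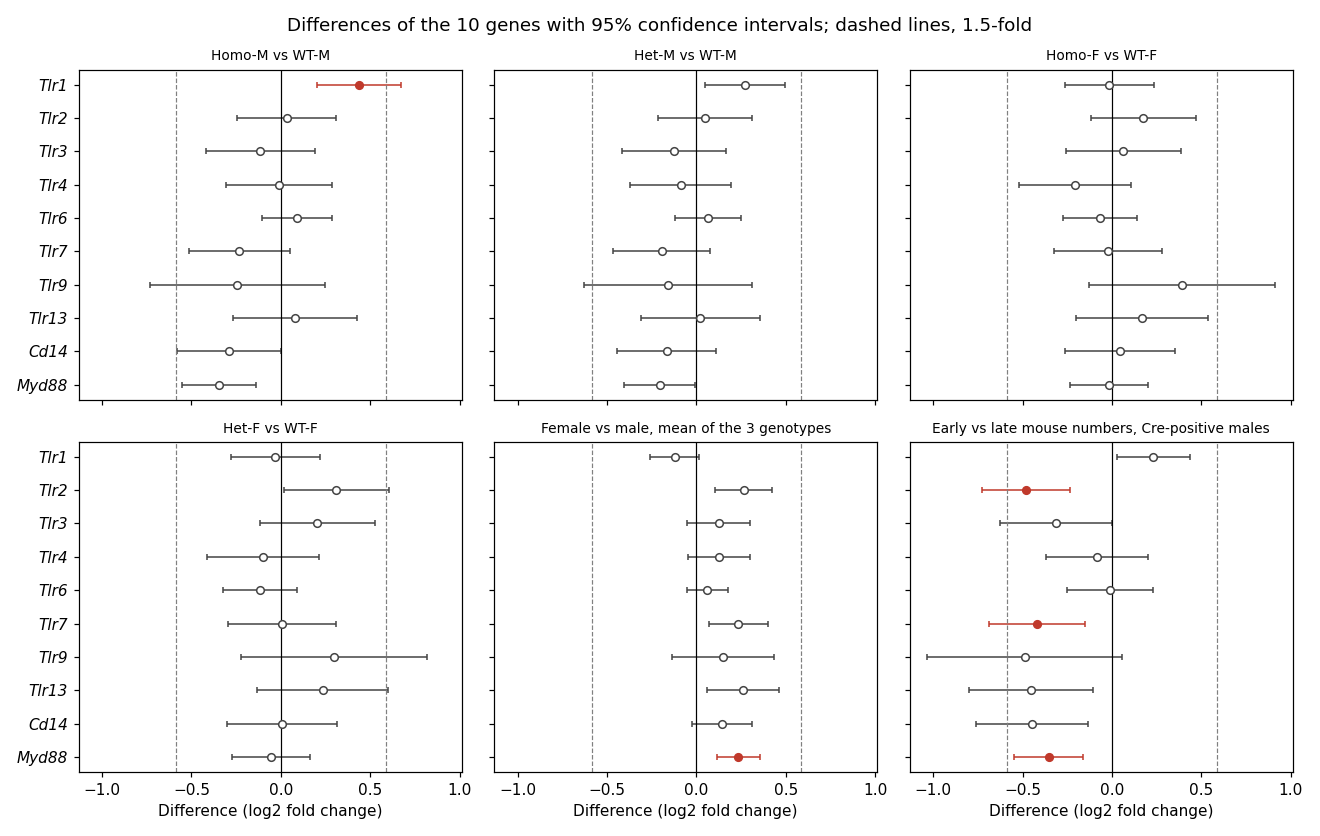
Differences of the 10 genes (horizontal axes, log2 fold change) in 6 comparisons. Points are estimates and bars 95% confidence intervals from limma; filled red points have an adjusted p below 0.05, and dashed lines mark 1.5-fold. Of the genotype comparisons, Tlr1 in Homo-M against WT-M holds the only filled point.

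Het-M shares its WT-M controls with Homo-M. None of the 10 genes passed in limma for Het-M against WT-M, where 0.172% of all genes had an adjusted p below 0.05, 0.154% were DEGs and 0.84% did not overlap. Tlr1 and Myd88 had an unadjusted p below 0.05, against 14.2% of all genes. Tlr1 ran from 29.9 to 47.7 FPKM in the 6 Het-M libraries with a median of 40.8 FPKM, a difference of 0.27 (SE 0.11, adjusted p = 0.301). The values overlapped WT-M, the lowest being the library labelled Het-M-0199. Without the libraries labelled Het-M-0199 and Het-F-0206 the difference was 0.33 (adjusted p = 0.155). Myd88 ran from 44.0 to 57.0 FPKM with a median of 52.7 FPKM, a difference of −0.20 (SE 0.10, adjusted p = 0.344), and −0.25 (adjusted p = 0.241) without those libraries. The other 8 genes differed by −0.20 to 0.06, and 9 of the 10 intervals lay within 1.5-fold, Tlr9 being the exception. Homo-M and Het-M compared directly gave differences of −0.14 (Myd88) to 0.17 (Tlr1) with all 10 intervals within 1.5-fold. No gene of the table passed in that comparison, and 3.85% of all genes and none of the 10 had an unadjusted p below 0.05. None of the 10 was without overlap there, against 0.183% of all genes.

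In females, none of the 10 genes passed in Homo-F against WT-F, where 0.071% of all genes had an adjusted p below 0.05. None of the 10 had an unadjusted p below 0.05 in limma either, against 3.49% of all genes. Differences ran from −0.20 (Tlr4) to 0.39 (Tlr9). Tlr1 and Myd88 both differed by −0.02, with intervals of −0.26 to 0.23 and −0.24 to 0.20. Tlr2 was at 76.4, 76.4, 81.7 and 80.8 FPKM in WT-F and at 88.7, 101.5, 82.1, 89.3 and 85.5 FPKM in Homo-F. Tlr13 was at 115.2, 112.8, 106.9 and 117.2 FPKM in WT-F and at 137.5, 121.5, 131.9, 120.8 and 125.0 FPKM in Homo-F. Neither pair of groups overlapped, against 2.31% of all genes, yet both differences were 0.17 with an adjusted p of 1. The SE from all 30 libraries was 0.14 for Tlr2 and 0.18 for Tlr13.

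Het-F shares its WT-F controls with Homo-F. Tlr2 was at 92.7, 130.6, 84.8, 96.9 and 91.1 FPKM in Het-F, above all 4 WT-F values, where 2.21% of all genes showed no overlap. Tlr2 was the 1 member with an unadjusted p below 0.05 in limma, against 3.95% of all genes. The difference was 0.31 (SE 0.14, adjusted p = 1), and it was 0.21 without the libraries labelled Het-F-0206 and Het-M-0199. No member passed, against 0.136% of all genes, and the intervals of Tlr2, Tlr9 and Tlr13 reached beyond 1.5-fold. Homo-F and Het-F gave differences of −0.14 (Tlr3) to 0.10 (Tlr9) with all 10 intervals within 1.5-fold, and none of the 10 passed, against 0.0118% of all genes. At an unadjusted p below 0.05 in limma there were 0 members, against 2.06% of all genes, and 0 without overlap, against 0.491%.

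The difference between the sexes in the effect of genotype was tested directly. For Homo against WT it was 0.45 for Tlr1 (SE 0.17, unadjusted p = 0.0108 from limma, adjusted p = 0.526) and −0.33 for Myd88 (SE 0.15, unadjusted p = 0.0326 from limma, adjusted p = 0.528). A positive value means that the difference was more positive in males. At an unadjusted p below 0.05 in limma these were the only members for Homo, against 9.29% of all genes, and there were 0 for Het, against 4.53%. None of the 20 values over the 10 genes and both genotypes passed, so a difference between males and females in the effect was not shown. With both sexes and both Cre-positive genotypes pooled against WT, differences ran from −0.16 (Myd88) to 0.17 (Tlr1), all 10 intervals lay within 1.5-fold, and 0 of the 10 passed, against 1.44% of all genes. At an unadjusted p below 0.05 there were 2 members, Tlr1 and Myd88, against 14.5% of all genes, and 0 were without overlap, against 0.0769%.

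Females were compared with males over the 3 genotypes. Myd88 was the only one of the 10 to pass an adjusted p below 0.05, against 1.24% of all genes, and none was a DEG, against 0.438%. At an unadjusted p below 0.05 there were 4 members (Tlr2, Tlr7, Tlr13 and Myd88), against 26.8% of all genes, and 0 were without overlap, against 0.0533%. Myd88 ran from 50.3 to 64.2 FPKM in the 14 female libraries, with a median of 58.0 FPKM, and from 42.7 to 59.8 FPKM in the 16 male libraries, with a median of 52.7 FPKM. The ranges overlapped, and the difference was 0.23 (SE 0.06, adjusted p = 0.0453). 5 of the 6 early libraries are male. Among late numbers the difference was 0.13 (adjusted p = 0.484), and with number range as a covariate it was 0.17 (adjusted p = 0.166). The call held in 10 of the 30 fits that left out 1 library, those without Het-F-0205, Het-M-0197, Het-M-0199, Het-M-0210, Homo-F-0201, Homo-M-0189, Homo-M-0190, WT-F-0122, WT-M-0177 or WT-M-0178. It also held without the libraries labelled Het-M-0199 and Het-F-0206 together, at 0.24 (adjusted p = 0.0462). It was lost in 20 fits, without any 1 of the rest, with adjusted p-values up to 0.0848 without WT-F-0207. Over the 30 fits the difference ran from 0.21 to 0.25, and 41 to 1947 of all genes passed, against 210 with all libraries.

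Tlr2 was 0.26 higher in females (SE 0.08, adjusted p = 0.0656). The X-linked Tlr7 was 0.23 higher (SE 0.08, adjusted p = 0.0869), with medians of 88.6 FPKM in females and 80.3 FPKM in males. The X-linked Tlr13 was 0.26 higher (SE 0.10, adjusted p = 0.102), with medians of 122.5 and 112.3 FPKM. None of these passed. The 514 tested X-linked genes other than Xist and Tsix had a median difference of −0.02, and the 16253 autosomal genes one of −0.04. 9 of the 10 members were higher in females, the exception being Tlr1 at −0.12, and 43.6% of all genes were higher. All 10 intervals lay within 1.5-fold.

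The early and late mouse numbers were compared inside the Cre-positive males, with genotype as a covariate, since that range coincides with genotype. The numbers are those of the titles, and what they stand for is not given in the sources used here. 3 of the 10 genes, Tlr2, Tlr7 and Myd88, were lower in early libraries at an adjusted p below 0.05, where 14.6% of all genes passed and 5.81% passed as lower, and none was a DEG, against 7.42%. At an unadjusted p below 0.05 there were 7 members, against 33.8% of all genes. Before scaling, the FPKM ranges of 3 members (Tlr1, Tlr2 and Myd88) did not overlap, against 5.72% of all genes. Tlr2 was at 62.1 to 77.8 FPKM in the 5 early libraries and at 80.2 to 98.9 FPKM in the 6 late ones, with no overlap, a difference of −0.48 (SE 0.11, adjusted p = 0.0262). Myd88 was at 42.7 to 49.7 FPKM in early and 50.4 to 57.0 FPKM in late libraries, again with no overlap, a difference of −0.35 (SE 0.09, adjusted p = 0.0299). Tlr7 was at 59.7 to 83.0 FPKM and 77.4 to 93.1 FPKM, which overlap, a difference of −0.42 (SE 0.12, adjusted p = 0.0438).

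Tlr1 was the only member with a positive difference, at 44.3 to 53.3 FPKM against 29.9 to 43.7 FPKM with no overlap before scaling, but its difference of 0.23 (SE 0.09, adjusted p = 0.110) did not pass. Early libraries had scaling factors of 1.03 to 1.15, against 0.946 to 1.10 in late ones. Once divided by these factors, the lowest early Tlr1 value (Het-M-0100) fell below the highest late one, so the scaled ranges overlapped. Cd14 differed by −0.45 (adjusted p = 0.0558), Tlr13 by −0.45 (adjusted p = 0.0721) and Tlr9 by −0.49 (adjusted p = 0.190). Tlr4 and Tlr6 differed by −0.08 and −0.01. The median over the 10 genes was −0.39, against 0.10 for all genes. These 3 calls depended on single libraries too. Without Het-M-0100 none of them passed, with adjusted p-values of 0.112 for Tlr2, 0.121 for Myd88 and 0.170 for Tlr7. In that fit 1 of all genes passed, against 2459 with all 11 libraries. Over the fits that left out 1 library, differences ran from −0.54 to −0.41 for Tlr2, −0.40 to −0.29 for Myd88 and −0.49 to −0.32 for Tlr7. Of the 11 fits that left out 1 library, Tlr2 passed in 5, without Het-M-0197, Het-M-0199, Het-M-0203, Homo-M-0097 or Homo-M-0109. Tlr7 and Myd88 each passed in 2, without Het-M-0203 or Homo-M-0097. Without the libraries labelled Het-M-0199 and Het-F-0206, the differences were −0.49 for Tlr2 (adjusted p = 0.0469), −0.34 for Myd88 (adjusted p = 0.0528) and −0.43 for Tlr7 (adjusted p = 0.0667). Other measures moved with the range. Microglia markers summed to 16776 to 22621 FPKM in early and 19225 to 24900 FPKM in late libraries, and border macrophage markers to 20.2 to 29.7 and 12.4 to 20.5 FPKM. Neutrophil markers were at 0.0923 to 189.5 FPKM in early and 0 to 13.04 FPKM in late libraries, ranges that overlap. Sums were 2.43 to 26.6 against 1.88 to 7.25 FPKM for astrocyte markers, 18.6 to 105.3 against 12.9 to 28.2 FPKM for oligodendrocyte markers and 5.03 to 8.46 against 3.41 to 5.11 FPKM for monocyte markers. In early libraries 1 gene each of the neutrophil (7 tested), astrocyte (4), oligodendrocyte (3) and border macrophage (7) lists passed as higher. Of the 2 endothelium markers tested, 1 passed as lower. Of all genes, 14.6% passed in either direction. The estimated relative depth was 0.669 to 0.921 against 0.727 to 1.41. Their part in the differences was not tested.

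**Figure D3:**
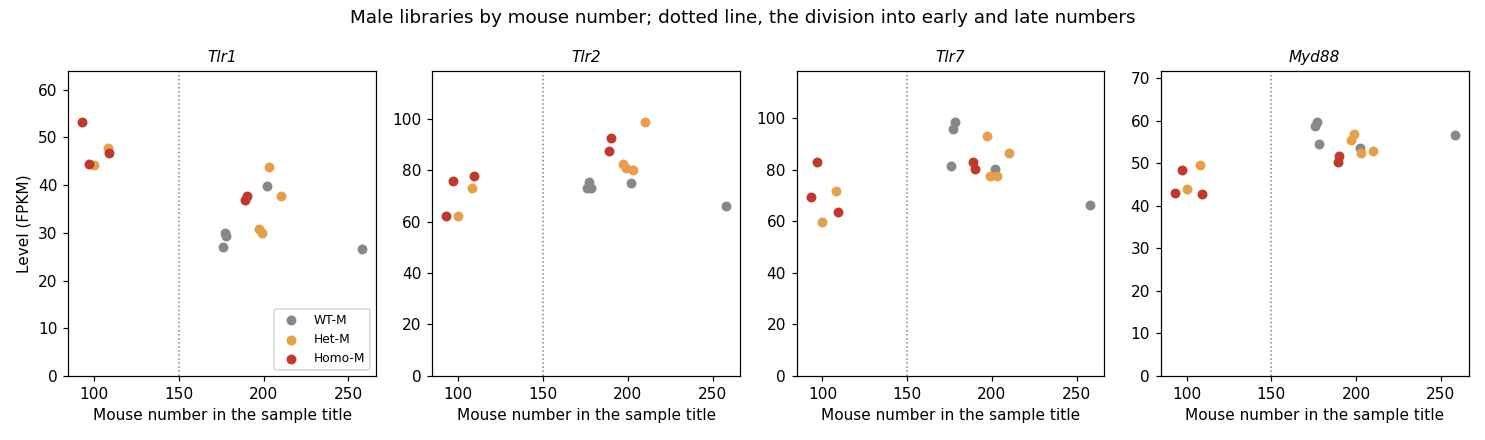
Level in FPKM (vertical axes, starting at 0) of Tlr1, Tlr2, Tlr7 and Myd88 in the 16 male libraries against the mouse number in the title (horizontal axes), coloured by group. Early numbers lie left of the dotted line and hold no WT-M library; there Tlr1 runs from 44.3 to 53.3 FPKM and Myd88 from 42.7 to 49.7 FPKM.

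The members also varied together within groups. Over 30 libraries, after removal of the 6 group means, Tlr7 and Tlr13 had r = 0.89, Tlr3 and Tlr7 r = 0.85, Tlr3 and Tlr13 r = 0.80, Cd14 and Myd88 r = 0.80, and Tlr2 and Cd14 r = 0.78. These are descriptions over libraries that share a scaling, a depth and the mouse number ranges. Of the 45 pairs, 36 were positive. Tlr1 stood apart, with 7 of its 9 values negative, the lowest being −0.50 with Myd88 and with Tlr9. Tlr4 had its highest values with Tlr3 (0.46) and Tlr1 (0.44), and −0.08 with Cd14. Tlr1 and its paralog Tlr6 had r = 0.01.

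**Figure D4:**
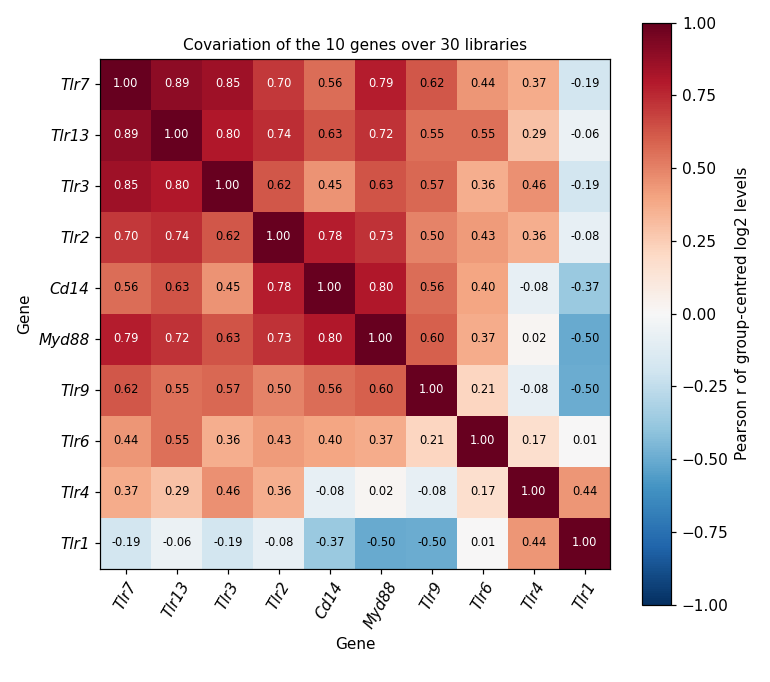
Pearson r of log2 levels, with group means removed, for each pair of the 10 genes over 30 libraries; red is positive and blue negative. Tlr7, Tlr13, Tlr3, Tlr2, Cd14, Myd88 and Tlr9 form a block of positive values of 0.45 and above, and the row of Tlr1 is mostly blue.

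The genes most like each member were sought among 11621 others with a mean of at least 1 FPKM, over the same 30 libraries. Tlr7 was nearest to G3bp2, Spata13 and Pik3cg (r = 0.95, 0.95 and 0.94), Tlr13 to Plek, Hif1a and Fbxw11 (0.94, 0.93 and 0.93) and Tlr3 to Aco1, Msn and Zdhhc5 (0.94, 0.92 and 0.92). Myd88 was nearest to Eno1, the microglia marker Tmem119 and Scpep1 (0.93, 0.92 and 0.92), Cd14 to Akr7a5, Ralb and H2-DMa (0.93, 0.92 and 0.92) and Tlr2 to Fuca2, P4hb and Fam49b (0.91, 0.90 and 0.87). The remaining members had looser neighbours. Tlr9 was nearest to Fkbp5, St14 and Tmem63a (0.86, 0.85 and 0.85), Tlr1 to Wsb1, 2010315B03Rik and Poglut1 (0.84, 0.82 and 0.79), Tlr4 to Tapt1, Abhd13 and Zfp597 (0.83, 0.82 and 0.81) and Tlr6 to Faap24, Taf9b and Bckdk (0.76, 0.75 and 0.72).

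Around the receptors, 89 further genes of the pathway were listed by role, and 82 were tested. In Homo-M against WT-M 6 of the 82 passed an adjusted p below 0.05, all higher, where 2.82% of all genes passed. In Het-M against WT-M 1 did, where 0.172% of all genes passed. None passed in either female comparison, nor in females against males. Of 20 listed target genes of receptor signalling, 13 were tested, and 5 were higher and 0 lower in Homo-M, with a median of 0.66 over the 13. The Homo-M neutrophil and border macrophage sums given above apply to these genes as well. Among late numbers alone, or with number range as a covariate, 0 of them passed by limma, where 9 and 40 of all genes passed, against 477 in the main fit. The count was 2 without Homo-M-0093, WT-M-0176, WT-M-0177 or WT-M-0178 and 3 without Homo-M-0097 or Homo-M-0109.

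Tnf encodes the cytokine TNF. It was at 0.691, 0.906, 0.681, 1.88 and 1.30 FPKM in WT-M and at 5.51, 6.75, 3.47, 3.90 and 3.40 FPKM in Homo-M, with no overlap, a difference of 1.95 (SE 0.37, adjusted p = 0.00658). The 2 late Homo-M libraries were also above every WT-M library. Nfkbiz, an NF-kB cofactor, differed by 1.13 (adjusted p = 0.0111), Il1a, the gene of interleukin-1 alpha, by 0.60 (adjusted p = 0.0267), Cd40, a co-stimulatory receptor, by 1.495 (adjusted p = 0.0318) and Il6, the gene of interleukin-6, by 0.90 (adjusted p = 0.0352). Of the 10 fits that left out 1 library, Tnf and Nfkbiz each passed in 10, Cd40 in 5, Il1a in 4 and Il6 in 3. In those fits 89 to 1379 of all genes passed. Among late numbers alone, where none passed, the differences were 1.75 for Tnf, 0.71 for Nfkbiz, 0.63 for Il1a, 1.49 for Cd40 and 0.58 for Il6. Il1a was at 63.2 to 98.7 FPKM in WT-M and 103.7 to 127.9 FPKM in Homo-M, with no overlap. Cd40 was at 0.136 to 0.642 FPKM in WT-M and 0.619 to 1.76 FPKM in Homo-M, which overlap. In females Tnf was at 0.410 to 2.21 FPKM in WT-F and at 0.608 to 1.76 FPKM in Homo-F, which overlap.

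Cd180 encodes RP105, a relative of TLR4 that lacks a signalling domain. It was at 52.2, 48.9, 51.0, 49.6 and 56.8 FPKM in WT-M and at 85.4, 78.5, 74.7, 75.8 and 80.1 FPKM in Homo-M, with no overlap. The difference was 0.53 (SE 0.09, adjusted p = 0.00154) in Homo-M and 0.43 (SE 0.08, adjusted p = 0.0194) in Het-M. Among late numbers alone it was 0.59 (adjusted p = 0.0612) in Homo-M and 0.46 (adjusted p = 0.0843) in Het-M. The Het-M call was also lost without WT-M-0177 (adjusted p = 0.0649) or WT-M-0178 and with only the groups compared (adjusted p = 0.184). In females Cd180 was at 47.1 to 53.7 FPKM in WT-F, 56.2 to 71.0 FPKM in Het-F and 48.6 to 70.8 FPKM in Homo-F. Homo-F overlapped WT-F, Het-F did not, against 2.21% of all genes, and Cd180 passed in neither female comparison. Pooled over sexes and Cre-positive genotypes its difference was 0.37 (SE 0.06, adjusted p = 0.000182), and there it passed in all 30 fits that left out 1 library and under all 10 alternative settings. Ly86, the partner of RP105, and Ly96, the partner of TLR4, differed by −0.02 and −0.01 there and did not pass.

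In the same pooled comparison 7 of the 82 pathway genes were higher and 1 was lower, where 1.44% of all genes passed. Il1b, the gene of interleukin-1 beta, differed by 0.83 (SE 0.17, adjusted p = 0.00662), Nfkbiz by 0.61 (adjusted p = 0.0287), Tnf by 0.95 (adjusted p = 0.0331), Il1a by 0.36 (adjusted p = 0.0410) and Il6 by 0.57 (adjusted p = 0.0458). Of the 30 fits that left out 1 library, Il1b passed in 30, Nfkbiz in 25, Tnf in 21, Il1a in 12 and Il6 in 8. Among late numbers alone Il6 did not pass in limma (adjusted p = 0.0818), while Il1b, Nfkbiz, Tnf and Il1a did. Irak2, a kinase that MYD88 recruits, differed by 0.20 (SE 0.05, adjusted p = 0.0409). That call held in 11 of the 30 fits that left out 1 library, without Het-F-0257, Het-M-0100, Het-M-0197, Het-M-0199, Het-M-0210, Homo-F-0234, Homo-F-0238, Homo-M-0189, Homo-M-0190, WT-F-0122 or WT-M-0178. It was lost in 19, without any 1 of the rest (adjusted p up to 0.148, without WT-F-0200), and among late numbers (adjusted p = 0.0903). Lbp, the gene of a plasma protein that hands lipopolysaccharide to CD14, differed by −1.51 (adjusted p = 0.0313) but was listed at 0 in 16 of 30 libraries and never above 1.64 FPKM. Choroid plexus markers moved with it: their 3-gene sum was 264.8, 121.6 and 129.3 FPKM in WT-M-0177, WT-F-0192 and WT-M-0202, which had the highest Lbp (1.64, 1.07 and 0.590 FPKM), and at most 23.3 FPKM in any Cre-positive library. All 3 of these markers had an unadjusted p below 0.05 in limma in the pooled comparison, 0 of them passed after adjustment, and their median difference was −1.95. Their part in the difference of Lbp was not tested. The Lbp call was lost without WT-F-0192, WT-F-0200, WT-M-0177, WT-M-0178 or WT-M-0202 (adjusted p up to 0.149), and among late numbers (adjusted p = 0.0580). The count of 5 target genes became 1 without WT-F-0192, WT-F-0200, WT-M-0177 or WT-M-0178. Of all genes, 129, 156, 154 and 147 passed in those fits, against 243 with all libraries. In the 5 lists where nothing passed in a genotype or sex comparison, the smallest p was that of Tlr12 in females against males (0.15, adjusted p = 0.151), Slc15a4 there too (0.29, adjusted p = 0.0580), Nlrx1 likewise (0.26, adjusted p = 0.0651), Irf5 in Homo-M against WT-M (−0.26, adjusted p = 0.0548) and Sarm1 in Het-F against WT-F (0.51, adjusted p = 0.919).

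Between early and late Cre-positive males, 14 of the 82 pathway genes passed, 6 higher and 8 lower in early libraries, where 14.6% of all genes passed, a share close to that of the pathway genes.

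**Figure D5:**
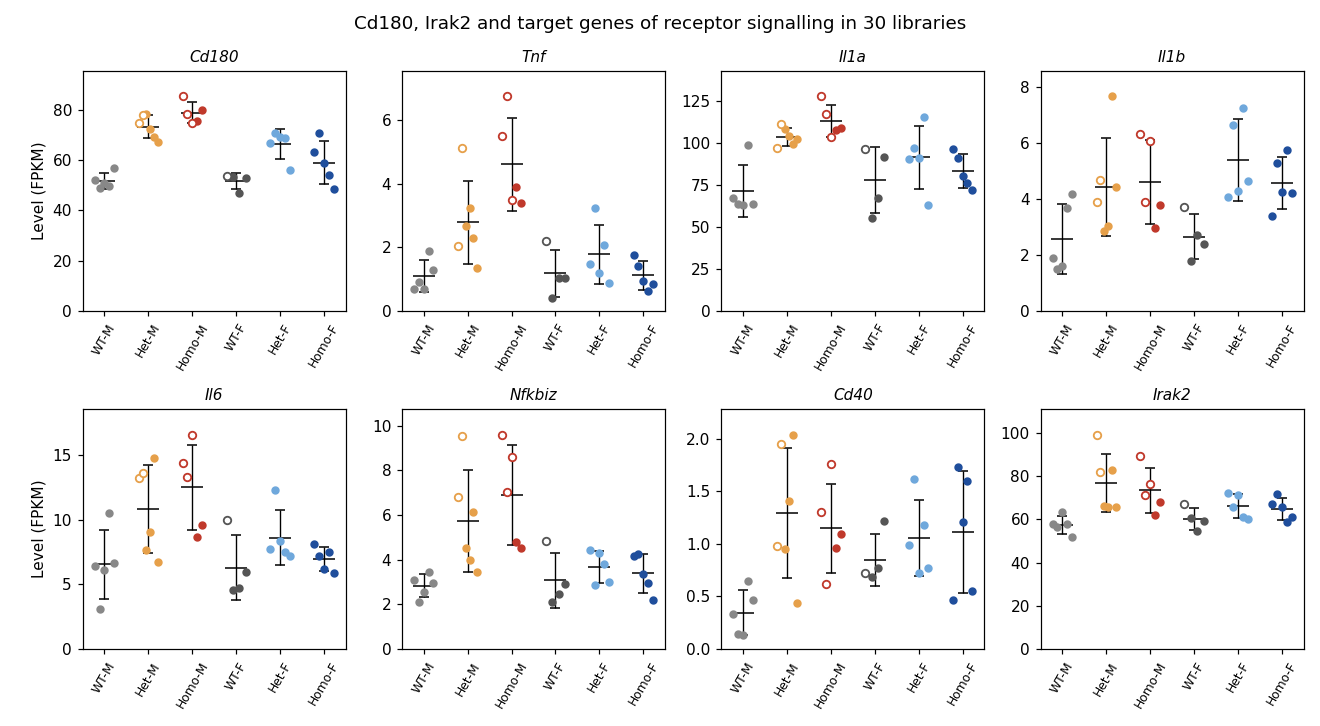
Level in FPKM (vertical axes, starting at 0) of Cd180, Tnf, Il1a, Il1b, Il6, Nfkbiz, Cd40 and Irak2 in 30 libraries by group (horizontal axes); points are libraries, open for early mouse numbers, and bars are mean and SD. Cd180 in Homo-M (74.7 to 85.4 FPKM), in early and late libraries alike, lies above WT-M (48.9 to 56.8 FPKM), which holds late numbers only.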

How the data were processed

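RNA-seq values of 30 libraries, 1 per mouse, were analysed, with groups taken from the sample titles. Per the study's methods the authors aligned reads to mm10, quantified them with RSEM and deposited FPKM values, and the submitters' processing notes also name DESeq2. Of 36 value columns, 6 matched no listed sample and were not used. The study's methods report that 6 samples with poor mapping and high duplication, which were also outliers, were removed. Whether these are the 6 unused columns was not checked. FPKM values are not counts, so no count model was run, and absolute depth is unknown; relative depth was estimated from the steps between low values. The protocol text of the labels describes cultured pup microglia, treatments with Tau, LPS and ATP, and stranded TruSeq libraries. The study's methods, which describe sorted cells of adult mice and a SMARTer and Nextera kit, were followed.

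FPKM values were divided by a median-of-ratios factor over 11436 genes and tested as log2(FPKM + 0.1) with limma 3.58.1 in R 4.3.3 (empirical Bayes with a mean trend), in 1 fit of 6 groups over the 16897 genes with a mean of at least 0.1 FPKM. Early and late mouse numbers were compared in a separate fit of the 11 Cre-positive males. Benjamini-Hochberg adjustment ran over all tested genes. Python 3.11.15 was used for the rest. The code was tested on simulated data. The sources do not say more of the replicates than that mouse numbers differ. All 10 genes passed the filter and are described; a pathway gene is named where its adjusted p fell below 0.05 in a genotype or sex comparison or was the smallest of its list. Ly86 and Ly96 were chosen after their values were seen. The members and lists were chosen with earlier results of these data known. Alternatives were other pseudocounts, filters, scalings and sample sets, array weights, number range as a covariate and leaving out each library.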

Additional observations from a re-analysis of the deposited data

Results flagged for a closer look

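Of 60 sets made of 1 of the 10 genes in 1 group, 4 held a library whose gap to its nearest neighbour exceeded the Dixon limit for the group's size, where chance gives about 1 in 20. All 4 lay in groups of 5 libraries, for which the limit was 0.71 of the group's range. Tlr1 in WT-M-0202 was at 39.8 FPKM, with the next WT-M value at 30.0 FPKM. Tlr9 in the same library was at 1.28 FPKM, with the next at 1.95 FPKM, and this library had the highest neutrophil marker sum of WT-M, 349.2 FPKM. Tlr2 in WT-M-0258 was at 66.1 FPKM, with the next at 73.0 FPKM. Tlr2 in the library labelled Het-F-0206 was at 130.6 FPKM, with the next at 96.9 FPKM. What lies behind these values was not tested.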

How the results depend on the processing

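No paired analysis was possible because the replicate number of each library is that of its own mouse and no number recurs between groups. None of the 10 genes was a DEG under any setting that kept the fold change limit. Over the members' fold changes and the alternatives, 774 values kept their direction and side of the threshold, 14 passed newly and 22 no longer passed. A further 50 changed sign, all of these small differences that did not pass. From the fits that left out a library, only the lowest and highest difference of each member in each comparison entered these counts. The counts therefore do not hold every call lost or gained in those fits. Among all of those fits, Tlr1 in Homo-M against WT-M lost its call in 7 and Myd88 between the sexes in 20. Myd88 in Homo-M against WT-M passed newly in 3. The alternatives for the early and late mouse numbers, for the pathway genes, without the libraries labelled Het-F-0206 and Het-M-0199, and the counts at an adjusted p alone were chosen after seeing the data. Beyond the constructions named, the causes were not tested. FPKM values carry no counts, so depth limits could not be given per gene, and Tlr9, the lowest of the 10, had the widest intervals.

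Without the fold change limit, the members called were 1 in Homo-M against WT-M, 1 in females against males and 3 in early against late numbers. Of all genes, 477, 210 and 2459 passed there. In that order, the member counts were 0, 0 and 0 with no filter on low values, by limma over more genes, where 274, 30 and 121 of all genes passed. The count for Homo-M was 2 with a mean of at least 1 FPKM, 2 with no scaling, 2 with array weights, and 0 with only the groups compared, where fewer libraries were fitted. Of all genes, 643, 426, 912 and 84 passed in these settings. With number range as a covariate and with late numbers only, the counts for Homo-M and for the sexes were 0. Of all genes, 40 and 9 passed there for Homo-M, and 25 and 13 for the sexes. The count for early against late numbers was 5 with a mean of at least 1 FPKM, 7 with array weights and 1 without the libraries labelled Het-F-0206 and Het-M-0199. In that order, 3107, 5110 and 948 of all genes passed. Leaving out 1 library gave 0 to 2 in Homo-M, 0 to 4 between the sexes and 0 to 7 between number ranges. Of all genes, 89 to 1379, 41 to 1947 and 1 to 4832 passed in these fits, so the member counts moved with those of the whole table.

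The 5 target genes of Homo-M became 3 with no filter, 2 with only the groups compared, and 0 with the covariate and with late numbers only, and ran from 2 to 6 with 1 library left out. Of all genes, 274, 84, 40 and 9 passed in these settings, and 89 to 1379 with 1 library left out. The 5 of Cre-positive against WT became 2 with no filter, 3 with quantile normalization and 2 without the libraries labelled Het-F-0206 and Het-M-0199, and ran from 1 to 7 with 1 library left out.

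Differences that changed sign are given in log2. With no scaling they were Tlr4 in Homo-M (0.0738), Tlr6 in Cre-positive against WT (0.0353), and Tlr4 and Tlr6 in early against late numbers (0.0628 and 0.1329). With array weights they were Tlr4 in Homo-M (0.0077), Cd14 in Het-F (−0.0145) and Tlr6 in early numbers (0.017). With quantile normalization they were Tlr4 in Homo-M (0.0054), Cd14 in Het-F (−0.0072), and Tlr6 and Tlr9 in Cre-positive against WT (0.0007 and −0.0334). With number range as a covariate they were Tlr3, Tlr4 and Tlr9 in Homo-M (0.057, 0.0159 and 0.117), Tlr9 in Het-M (0.0403), Tlr1, Tlr3 and Cd14 in Homo-F (0.0418, −0.0083 and −0.065) and Tlr1, Tlr7 and Cd14 in Het-F (0.0255, −0.0758 and −0.1019). With late numbers only they were Tlr3 and Tlr4 in Homo-M (0.1879 and 0.0732), Tlr9 in Het-M (0.0761), Tlr1 and Cd14 in Homo-F (0.0422 and −0.0567) and Tlr1, Tlr7 and Cd14 in Het-F (0.0277, −0.0028 and −0.0918). Without the libraries labelled Het-F-0206 and Het-M-0199 they were Tlr13 in Het-M (−0.0061), Tlr7 and Cd14 in Het-F (−0.0058 and −0.0563) and Tlr6 in early numbers (0.0233).

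With 1 library left out, the sign changed within these ranges. In Homo-M they were −0.0421 to 0.1391 for Tlr2, −0.1712 to 0.0736 for Tlr4 and −0.0473 to 0.1661 for Tlr13. In Het-M they were −0.0406 to 0.1485 for Tlr2, −0.0059 to 0.1128 for Tlr6 and −0.1045 to 0.1577 for Tlr13. In Homo-F they were −0.0681 to 0.0435 for Tlr1, −0.0687 to 0.0353 for Tlr7, −0.0554 to 0.1217 for Cd14 and −0.0361 to 0.004 for Myd88. In Het-F they were −0.1166 to 0.0357 for Tlr1, −0.0362 to 0.0633 for Tlr7 and −0.0924 to 0.0843 for Cd14. In Cre-positive against WT they were −0.0475 to 0.0478 for Tlr3, −0.0413 to 0.0156 for Tlr6 and −0.0522 to 0.1679 for Tlr9. In early against late numbers the range for Tlr6 was −0.0567 to 0.0768.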
